A study of Homo sapiens with 23 samples.

Results

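The 10 genes described here encode heat shock chaperones, the proteins that help other proteins to fold and that keep damaged proteins from aggregating. They were taken from a list of names, drawn up with earlier results of these data known: HSPA1A, HSPA1B, HSPA8, DNAJB1, HSPH1, HSP90AA1 and HSPB1, whose products work mainly in the cytosol and nucleus, and HSPD1, HSPE1 and HSPA9, whose products work in the mitochondrial matrix. All 10 were among the 36084 genes quantified, and 8 were among the 16370 genes with enough counts to be tested. HSPA1A and HSPA1B were the other two.

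The RNA-seq libraries came from SCi-NCCITs, a derivative of the human embryonal carcinoma line NCCIT. The cells carry a doxycycline-inducible dCas9-KRAB, a nuclease-dead Cas9 fused to a repressor domain, and constitutively express a pair of sgRNAs against SINE-VNTR-Alu transposons (SVAs), whose target sequence is shared with LTR5Hs elements. The comparison was between 3 libraries of SCi-NCCITs without doxycycline and 3 libraries of SCi-NCCITs given 2 µg/mL doxycycline for 72 hours. The question was how the chaperone mRNAs differed once the repressor had been induced. Stably integrated clones had been isolated for the dCas9-KRAB step, and both groups grew under the same antibiotics. No library of doxycycline-treated cells without sgRNAs or dCas9-KRAB was in the comparison. Repression of SVAs, repression of LTR5Hs elements, production of dCas9-KRAB itself and exposure to doxycycline therefore cannot be told apart. The labels do not say whether the 3 libraries of a group came from separate cultures, and p-values then measure only the spread between these libraries.

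Depth was 15305909, 33286581 and 45295427 estimated counts without doxycycline and between 46562047 and 49878613 with it, so the first untreated library was the shallowest. The 8 pluripotency genes used to check the line, among them POU5F1, SOX2 and NANOG, were above 10 TPM, the transcript level corrected for length and depth, in every library. Their summed level was 1420 to 1580 TPM without doxycycline and 1120 to 1270 TPM with it. Of 13 markers of differentiated or other cells, 10 were below 1 TPM in every library, and the list summed to 6.81–10.9 TPM without and 7.26–10.7 TPM with doxycycline. In bulk RNA, fewer cells of a type and less RNA per cell cannot be told apart. Between the treatments 2858 genes differed (adjusted p under 0.05, edgeR's quasi-likelihood test with Benjamini-Hochberg adjustment), which is 17.5% of the genes tested. The share was 8.97% for higher and 8.49% for lower, and the median log2 fold change of all genes tested was -0.003. Of the 8 pluripotency genes 4 fell and none rose, with the largest falls in TDGF1 (-1.13 on the log2 scale), DNMT3B (-0.60) and NANOG (-0.57). Of the 8 tested markers of other cells 1 rose, GATA6, at 0.963 CPM without and 2.60 CPM with doxycycline. The part of these differences in the chaperone values was not tested.

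Cytosolic and mitochondrial chaperones form separate arms of the heat shock system. In the cytosol, HSP70 proteins such as HSPA1A and HSPA8 bind exposed hydrophobic stretches in a cycle of ATP hydrolysis, J-domain proteins such as DNAJB1 hand them their clients, and HSPH1 exchanges their nucleotide. HSP90AA1 acts later on kinases, receptors and other clients, and the small heat shock protein HSPB1 holds unfolded proteins without using ATP. In mitochondria, HSPA9 pulls imported chains into the matrix, and HSPD1 (HSP60) with its lid HSPE1 (HSP10) encloses them while they fold. On heat or proteotoxic stress, the transcription factor HSF1 binds heat shock elements, which are inverted repeats of the letters GAA, and raises the inducible members. HSPA8, HSPA9 and other forms are made in unstressed cells as well.

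Heat shock elements are shown first because HSF1 acts on chaperone genes through them. RefSeq promoters (GRCh38.p14, 250 bases before to 50 after each start, 14 windows for the 10 genes) were searched on both strands for a strict element of 3 units, GAA then TTC then GAA, with any 2 bases between neighbouring units. It was found in 3 of the 10 members, HSPA8, HSP90AA1 and HSPD1. Counted by window, that was 3 of the 14 windows of the members and 0.49% of 35116 promoter windows of all genes. The matches are in capitals in the stretches below, 5′ to 3′ on the strand of the gene. They lie on the minus strand at chr11:123062154-123062386, chr14:102087095-102087157 and chr2:197500043-197500090.
HSPA8: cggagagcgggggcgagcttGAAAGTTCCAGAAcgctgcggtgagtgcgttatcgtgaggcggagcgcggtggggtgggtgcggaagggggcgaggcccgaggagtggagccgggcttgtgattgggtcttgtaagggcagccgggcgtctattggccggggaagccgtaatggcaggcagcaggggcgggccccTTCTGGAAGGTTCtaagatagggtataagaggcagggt
HSP90AA1: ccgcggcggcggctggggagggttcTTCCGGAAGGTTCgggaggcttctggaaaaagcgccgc
HSPD1: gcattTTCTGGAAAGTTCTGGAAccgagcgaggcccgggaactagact

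Counted from the start, the matches of HSPA8 began at -230 and -55 and that of HSP90AA1 at -88. In HSPD1, 2 overlapping matches ran together from -245 to -228. Of these 3 genes, HSP90AA1 rose with doxycycline, HSPD1 fell and HSPA8 did not pass the test, as described below gene by gene. The shorter element of 2 units, GAANNTTC, which is contained in the longer one, was found in 6.77% of all windows and in 8 of the 14 windows of the members. These belong to 7 of the 10 members: the 3 above, HSPA1A, HSPA1B, DNAJB1 and HSPB1. The other arrangement of 2 units, TTCNNGAA, which the longer element also contains, was found in 7.74% of all windows and in 4 of the 14 windows of the members. These belong to 4 of the 10 members: the 3 above and HSPA9. HSPH1 and HSPE1 had none of these in the windows searched, which does not mean that none lies nearby. The HSPE1 window began at chr2:197500129 and did not reach the HSPD1 stretch shown above, though that stretch lies between the starts of both genes. The HSPH1 window was set on a RefSeq start, and whether it covers the starts of the leading HSPH1 transcripts was not checked. A match of letters is a description and not evidence of binding.

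HSPD1 and HSPE1 are neighbours transcribed away from each other on chromosome 2, and share the DNA between their starts. In the hg19 coordinates of GENCODE the HSPD1 transcript starts at 198364564 on the minus strand and the HSPE1 transcript at 198365103 on the plus strand.

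Of the cytosolic inducible forms, all 4 that could be tested rose with doxycycline: DNAJB1, HSPB1, HSPH1 and HSP90AA1. Of the 3 mitochondrial forms, HSPD1 fell, and HSPE1 and HSPA9 did not pass the test. The constitutive HSPA8 did not pass either. Thus 5 of the 8 tested members passed, 4 in the higher direction and 1 in the lower, where 17.5% of all genes tested passed. The count of 5 was 4 or 3 without 1 of the libraries, as given below for HSPH1 and HSP90AA1.

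DNAJB1, the J-domain partner of cytosolic HSP70, was at 114.4, 108.1 and 114.6 CPM, the count scaled to library size, in the untreated libraries and at 160.5, 148.0 and 148.4 CPM with doxycycline. The lowest treated library was well above the highest untreated one. The means were 112.4 ± 3.69 and 152.3 ± 7.11 CPM (SD, n = 3 each). The fitted level was 35.6% higher, a log2 fold change of 0.44 ± 0.0565 (SE) with an edgeR adjusted p of 0.00103.

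HSPB1 (HSP27), the small heat shock protein, was at 131.4, 115.6 and 135.7 CPM without and at 191.9, 177.9 and 159.2 CPM with doxycycline. The groups did not overlap, although the treated libraries were more spread than the untreated ones. The level was 38.2% higher, a log2 fold change of 0.47 ± 0.0837 (SE), with an edgeR adjusted p of 0.00582. The rises of DNAJB1 and HSPB1 passed the test in all 14 alternative analyses, with adjusted p up to 0.00694 and 0.0313.

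HSPH1 (HSP110), the nucleotide exchange factor, was at 118.7, 129.2 and 128.0 CPM without doxycycline and at 148.1, 143.7 and 150.5 CPM with it. Here too every treated library was above every untreated one, by a smaller margin. The level was 17.5% higher, a log2 fold change of 0.23 ± 0.0545 (SE), with an edgeR adjusted p of 0.0191. With single libraries left out, the edgeR adjusted p was 0.0346 without untreated replicate 1 and 0.0448 without untreated replicate 2, which still passed. It was 0.052 without untreated replicate 3, and 0.0646, 0.05 and 0.0506 without treated replicates 1, 2 and 3.

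HSP90AA1, the inducible cytosolic HSP90, was at 885.5, 977.9 and 1005 CPM without and at 1120, 1135 and 1080 CPM with doxycycline. The shallowest library, untreated replicate 1, was the lowest of the 6. The level was 16.3% higher, with a log2 fold change of 0.22 ± 0.06 (SE) and an edgeR adjusted p of 0.0361. Without untreated replicates 1, 2 and 3 the edgeR adjusted p was 0.0615, 0.081 and 0.0516, and without treated replicates 1 and 2 it was 0.127 and 0.119. With counts scaled from TPM it was 0.0784, and with limma on log2(TPM + 1) 0.0792.

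**Figure D1:**
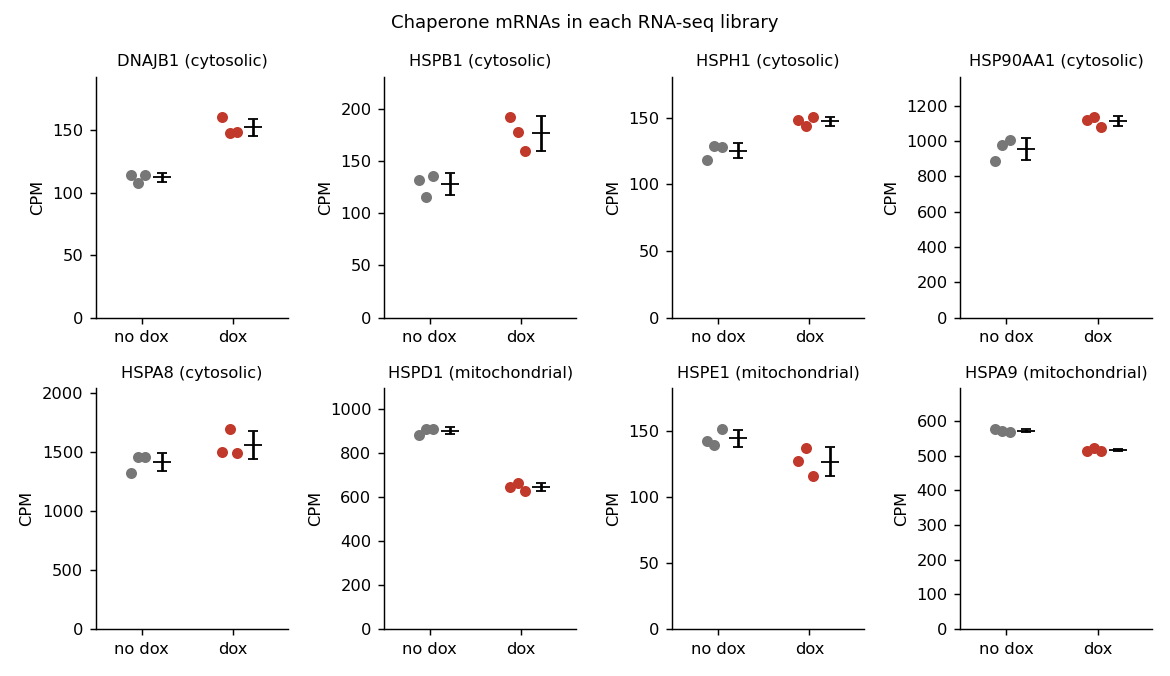
CPM (vertical axes, from 0) of the 8 tested members in the 3 libraries without doxycycline (grey) and the 3 with it (red), with the mean and SD in black. HSPD1 showed the widest gap, from 883.9–912.3 to 626.7–665.1 CPM, and in no panel did the groups overlap.

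HSPA8 (HSC70), the constitutive cytosolic HSP70 and the most abundant member, was at 1326, 1462 and 1461 CPM without doxycycline and at 1497, 1699 and 1491 CPM with it. These groups did not overlap in CPM, but they did in TPM, where the highest untreated library was at 949.0 and the lowest treated one at 924.6. The fitted log2 fold change was 0.14 ± 0.0685 (SE), and with an edgeR adjusted p of 0.19 it did not pass the test. Without treated replicate 2, the highest library, the log2 fold change was 0.08. In the 14 alternatives its adjusted p was between 0.139 and 0.505.

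HSPA1A and HSPA1B, the stress-inducible HSP70 genes, could not be tested. HSPA1B was listed at 0 in all 6 libraries. HSPA1A was listed at 0 in the 3 untreated libraries and in treated replicate 2, and at 9.39 and 11.01 estimated counts, or 0.113 and 0.131 TPM, in treated replicates 1 and 3. These genes are near-identical: of the 31-base words of HSPA1A, 76.9% also occur in HSPA1B. They lie at chr6:31783320-31785723 and chr6:31795515-31798031 (hg19, plus strand), in the major histocompatibility complex. Within 500 kb of HSPA1A, 35 of 69 protein-coding genes (50.7%) were below 1 TPM in every library, against 32.7% of all protein-coding genes. CSNK2B, a nearby gene for a subunit of a kinase used by most cells, was at 0.758 to 1.13 TPM, while BAG6, also nearby, was at 11.6 to 13.0 TPM. Of all transcripts in the files, 88.2% were placed on the annotation used, and whether further copies of these 2 genes are among the others was not tested. The listed 0 is therefore given as a value of the files and not as a level of HSPA1A or HSPA1B mRNA.

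HSPD1, which forms the folding chamber of mitochondria, was at 883.9, 910.5 and 912.3 CPM in the untreated libraries and at 647.0, 665.1 and 626.7 CPM with doxycycline. The gap between the groups was several times the spread within either. Its mean was 902.2 ± 15.9 CPM without and 646.3 ± 19.2 CPM with doxycycline (SD, n = 3 each), a fall of 28.4% and a log2 fold change of -0.48 ± 0.0497 (SE) with an edgeR adjusted p of 0.000302. The call held in all 14 alternatives, with adjusted p up to 0.00294.

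HSPE1, the lid of that chamber, was at 142.5, 139.0 and 151.6 CPM without and at 127.3, 137.0 and 115.4 CPM with doxycycline. The highest treated library was just below the lowest untreated one. The log2 fold change was -0.19 ± 0.0709 (SE), and the edgeR adjusted p of 0.0973 did not pass. On log2(TPM + 1) with limma the difference was -0.24 with an adjusted p of 0.0292.

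HSPA9 (mortalin), the mitochondrial HSP70, was at 578.4, 570.1 and 569.0 CPM without and at 514.3, 520.9 and 513.6 CPM with doxycycline. The libraries of each group lay close together, and the groups stood apart. Its log2 fold change of -0.15 ± 0.0464 (SE) had an edgeR adjusted p of 0.0551. It passed with DESeq2 (adjusted p 0.0126) and with limma on log2(TPM + 1) (0.0277), and in none of the other 12 alternatives.

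**Figure D2:**
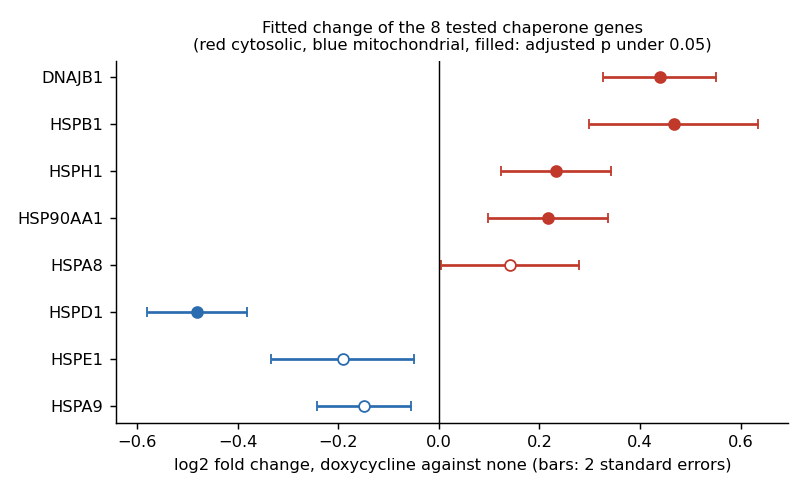
Fitted log2 fold change, doxycycline against none (horizontal axis), of the 8 tested members, cytosolic in red and mitochondrial in blue, with bars of 2 standard errors; filled points passed the test. The values ran from -0.48 for HSPD1 to 0.47 for HSPB1, with the 5 cytosolic genes above 0 and the 3 mitochondrial genes below it.

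All 8 tested members had CPM values that did not overlap between the groups. Among all genes tested, 37% had none, 19.1% in the higher and 17.8% in the lower direction. The 5 tested cytosolic members were in the higher direction and the 3 mitochondrial members in the lower. The mean log2 CPM of the cytosolic members minus that of the mitochondrial members was -0.52, -0.487 and -0.461 in the untreated libraries and 0.114, 0.046 and 0.094 with doxycycline. The shift between the group means was 0.57, and between 0.56 and 0.59 when any single library was left out. It is given without a test, since the members were chosen with results of these data known.

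On the TPM scale, which allows genes to be added, the 5 tested cytosolic members summed to 1611, 1740 and 1752 TPM without and to 1940, 1974 and 1889 TPM with doxycycline. The mitochondrial members summed to 1396, 1433 and 1439 TPM without and to 1112, 1131 and 1105 TPM with it. Both sums were apart between the groups and moved in opposite directions. The mitochondrial share of the total went from 45.6% ± 0.723 to 36.6% ± 0.289 (SD, n = 3 each). The 8 tested members together took 0.301 to 0.319% of all TPM without and 0.299 to 0.311% with doxycycline, ranges that overlap.

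**Figure D3:**
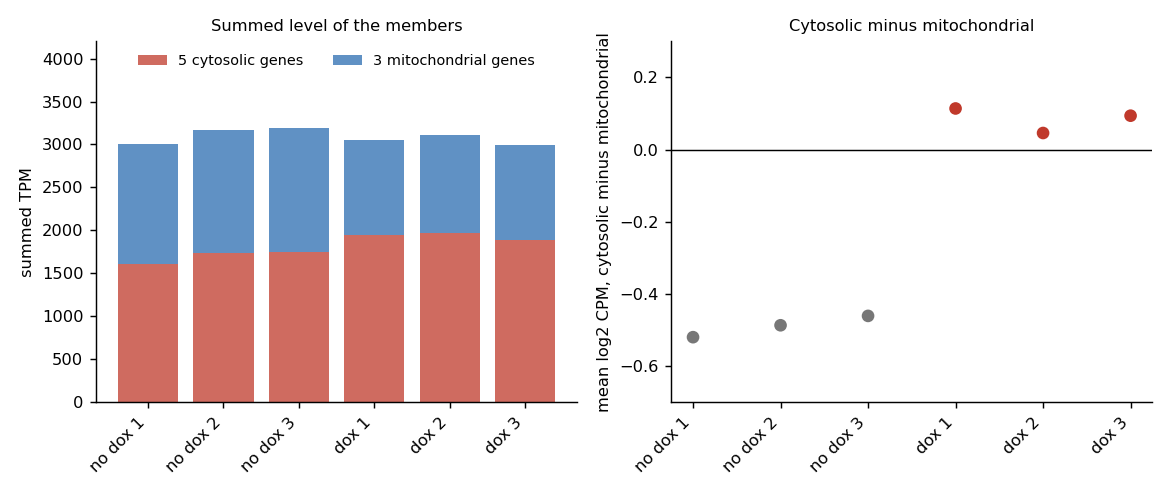
Left, summed TPM of the 5 tested cytosolic members (red) and the 3 mitochondrial members (blue) in each of the 6 libraries. Right, the mean log2 CPM of the cytosolic members minus that of the mitochondrial members, which was -0.52 to -0.461 in the untreated libraries (grey) and 0.046 to 0.114 in the treated ones (red).

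HSPD1 and HSPE1 are made for one complex. HSPD1 stood at 1.21, 1.25 and 1.17 times the TPM of HSPE1 in the untreated libraries and at 0.971, 0.949 and 1.07 times with doxycycline. The ratio was lower in every treated library. DNAJB1 was at 8.77, 7.52 and 8.05 TPM for every 100 TPM of HSPA8 without doxycycline and at 11.1, 9.02 and 10.1 with it. This ratio was higher in every treated library. For HSPH1 the figures were 5.93, 5.52 and 5.63 without and 6.45, 5.65 and 6.52 with doxycycline, and these overlapped.

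In TPM, the order of the members without doxycycline was HSPA8 (842 to 949), HSPD1 (589 to 627), HSPE1 (486 to 519), HSP90AA1 (367 to 411), HSPA9 (304 to 321), HSPB1 (256 to 288), DNAJB1 (71.4 to 74.6) and HSPH1 (49.9 to 52.4). No ranges of neighbours overlapped. With doxycycline HSPA8 was still first (925 to 1020 TPM) and DNAJB1 (92.0 to 102) and HSPH1 (57.6 to 61.8) last. HSP90AA1 (445 to 450), HSPE1 (398 to 446), HSPD1 (420 to 426) and HSPB1 (337 to 403) then lay close together, each overlapping HSPE1, and HSPA9 (260 to 282) followed. Among the 36084 genes, HSPD1 ranked 181st without and 254th with doxycycline, and HSPB1 418th and 302nd.

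By transcript, most members were carried by a single form. HSPA8-224 held 92.6 to 97.9% of the estimated counts of HSPA8, HSP90AA1-201 96.4 to 98.6%, DNAJB1-201 98.2 to 98.7%, HSPD1-202 95.1 to 96.7% and HSPB1-201 94.0 to 95.3%. For these genes the values above are thus mostly those of one coding mRNA. HSPA9 was mixed: the coding HSPA9-201 held 61.6 to 69.2% and the retained-intron form HSPA9-205 23.5 to 28.1%. In TPM, HSPA9-201 was at 108.5, 121.5 and 114.8 without and at 105.5, 101.3 and 101.8 with doxycycline. HSPA9-205 was at 129.5, 110.9 and 112.9 TPM without and at 93.7, 103.0 and 104.0 TPM with it. The TPM of HSPA9 and the mitochondrial sums above thus include much that is annotated as retained intron. HSPH1 was divided between HSPH1-206, annotated as a target of nonsense-mediated decay (30.4 to 38.2%), and the coding HSPH1-202 (33.8 to 38.1%) and HSPH1-209 (15.7 to 25.1%).

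Shares that did not overlap between the treatments were seen for the leading forms of 3 of the 8 tested members, with narrow gaps. HSPA8-224 held 96.7, 96.6 and 92.6% without and 97.2, 97.9 and 97.4% with doxycycline. HSP90AA1-201 held 96.4, 98.0 and 97.9% without and 98.3, 98.6 and 98.6% with it. HSPE1-201 held 86.5, 89.2 and 88.4% of the gene's counts without and 85.4, 85.9 and 85.1% with doxycycline. The shorter HSPE1-203 held 5.37, 5.06 and 5.77% without and 8.0, 7.50 and 7.82% with it. These groups did not overlap either. No test was run on the shares, and how often such shares stay apart among the transcripts of all genes was not counted. Of the 31-base words of HSPE1, 30.9% also occur in the readthrough gene HSPE1-MOB4, so how its counts were divided is uncertain.

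Several members have processed pseudogenes, and 55.0% of the words of HSPE1, 50.9% of HSPD1, 44.7% of HSPA8 and 39.3% of HSP90AA1 occur in other genes. Annotated pseudogenes received at most 0.18% of the counts of their member. With those counts added, the same 5 members passed.

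The genes of the same pathway were counted in the same fit, and each count below is to be read against 8.97% higher and 8.49% lower among all genes tested. Of the heat shock factors and their regulators, 2 of 5 tested were higher and none lower, with a median log2 fold change of 0.20. HSF1, the main stress factor, was at 39.9 ± 3.22 and 41.1 ± 1.29 CPM (SD, n = 3 each), with groups that overlapped. HSBP1, a small protein that binds HSF1, rose by 0.20 (edgeR adjusted p 0.0454).

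Of the other cytosolic HSP70, HSP110 and HSP90 genes, 1 of 8 tested was higher and none lower, and the median was -0.03. HSP90AB1, the constitutive counterpart of HSP90AA1, was at 1614 ± 55.2 and 1514 ± 52.3 CPM and did not pass (adjusted p 0.26). The gene that rose was HSPA6, a strictly stress-inducible HSP70, named here after its values were seen. It was at 1.36, 0.44 and 1.00 CPM without and at 4.33, 3.29 and 3.34 CPM with doxycycline. Though low, every treated library was above every untreated one, with a log2 fold change of 2.05 ± 0.298 (SE) and an edgeR adjusted p of 0.00208.

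Among the other J-domain proteins of the cytosol and nucleus, 5 of 13 tested were higher and 2 lower, with a median of 0.02. DNAJB5 rose by 0.55 (edgeR adjusted p 0.000716) and DNAJB2 by 0.41 (0.0175). DNAJC7, which also binds HSP90, fell by 0.32 (0.00798). Of 18 co-chaperones of HSP70 and HSP90, 2 were higher and 1 lower, with a median of 0.06. FKBP4 rose by 0.20 (edgeR adjusted p 0.0322) and STIP1, which links HSP70 to HSP90, by 0.18 (0.0279), whereas BAG4 fell by 0.39 (0.00437).

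Of 6 other small heat shock proteins tested, none passed as higher and 1 was lower, CRYAA, named after its values were seen. HSPB6 had a log2 fold change of 0.34 ± 0.248 (SE) and CRYAB one of 0.23 ± 0.15 (SE). CRYAA, a lens crystallin low in these cells, was at 4.23, 4.95 and 3.95 CPM without doxycycline. With doxycycline CRYAA was at 0.36, 0.36 and 0.17 CPM, a log2 fold change of -3.88 (edgeR adjusted p 1.62e-05). The TRiC chaperonin, the cytosolic counterpart of the HSPD1 chamber, had no subunit that passed. The 2 of 14 that passed in the list of TRiC and prefoldin were the prefoldin subunits PFDN2 (0.34, adjusted p 0.0321) and PFDN1 (0.27, adjusted p 0.0121), both higher.

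Other mitochondrial chaperones differed little: of 11 tested, none was higher and 1 lower, with a median of 0.07. The one was GRPEL2, a nucleotide exchange factor of HSPA9, at 36.9 ± 0.748 and 31.9 ± 0.382 CPM, a fall of 0.21 on the log2 scale (edgeR adjusted p 0.0293). TRAP1, the mitochondrial HSP90, was at 207.0 ± 0.885 and 217.9 ± 4.35 CPM and did not pass (adjusted p 0.32). Of 10 mitochondrial proteases, none was higher and 2 were lower: CLPX, which feeds the protease CLPP, fell by 0.30 (edgeR adjusted p 0.00401) and PMPCB, of the presequence peptidase, by 0.21 (0.0266).

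The chaperones of the endoplasmic reticulum had the most calls: 12 of 19 tested were higher, where 8.97% of all genes tested were, and none was lower, with a median of 0.29. SIL1, a nucleotide exchange factor of the HSP70 of this compartment, was at 25.1 ± 1.56 CPM without and at 46.0 ± 1.31 CPM with doxycycline, with a log2 fold change of 0.88 ± 0.0642 (SE) and an edgeR adjusted p of 3.58e-05. MANF rose by 0.50 (edgeR adjusted p 0.00197) and the J-domain protein DNAJB9 by 0.43 (0.0236). HSPA5 (BiP), the HSP70 of the compartment, was at 941.0 ± 102 and 1225 ± 61.4 CPM and rose by 0.38 (adjusted p 0.0118). Of all genes tested, 17.5% passed in either direction. Over the 9 lists, with the numbers tested given above, 24 genes were higher, 12 of them of the endoplasmic reticulum, and 7 lower. That total of 31 was between 17 and 32 when single libraries were left out, with 17 without untreated replicate 2 or treated replicate 1, 18 without untreated replicate 3 and 19 without treated replicate 2.

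**Figure D4:**
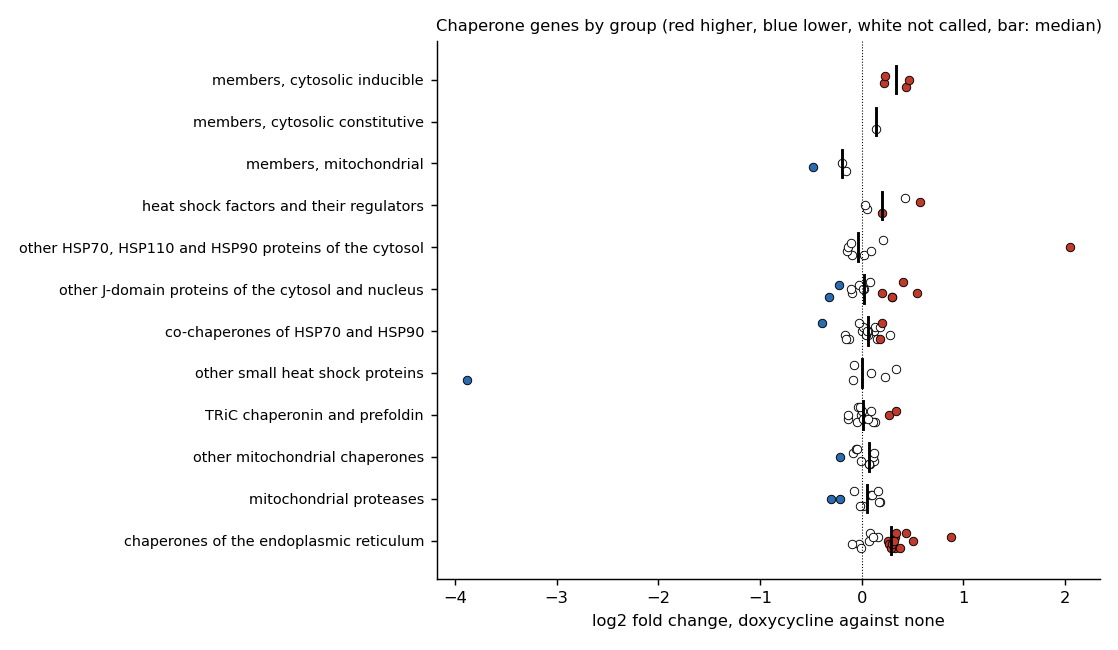
Log2 fold change, doxycycline against none (horizontal axis), of each tested gene of the member groups and of the 9 other chaperone lists (rows). Red genes were higher, blue lower and white ones did not pass, and black bars are medians; the endoplasmic reticulum row holds 12 red points of 19, and CRYAA at -3.88 and HSPA6 at 2.05 are the outermost.

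Genes whose level over the 6 libraries ran most like that of a member were found by the mean absolute difference of centred log2 CPM among 11302 genes above 5 CPM. SDHD (0.0125), ANXA5 (0.0153) and MTERF3 (0.0196) were nearest to HSPA8. That all shared its higher value in treated replicate 2 follows from the search itself. CNIH4 (0.0237), PNRC2 (0.0243) and UGP2 (0.0251) were nearest to HSPD1. Among the members, HSPH1 and HSP90AA1 were the closest pair at 0.036.

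The deposited peak lists allow a look at the gene starts. Peaks were sought within 1000 bases of the start of the transcript annotated as canonical (hg19), and single libraries give no test. For HSPH1 this was HSPH1-201, which held only 5.08 to 7.2% of the gene's counts. YY1, a zinc finger factor that binds many promoters, had a peak at 8 and 5 of the 10 members in the untreated libraries and at 7 and 8 in the treated ones, where 66%, 62.6%, 70.2% and 71.6% of 16307 genes had one. In all 4 libraries it was 5 of 10 members, and 56.5% of genes. The 5 were HSPA8, HSPA9, HSPB1, HSP90AA1 and HSPH1, and HSPA1A and HSPA1B had none in any library. At HSP90AA1 the strongest peak was not at the same place in each. Its summit lay at 1007 and -613 from the start without doxycycline and at 1046 and 387 with it. The authors kept only uniquely mapping reads, and these 2 genes are near-identical, so the absence of peaks there is not read as absence of binding.

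The YY1 peaks of HSPA8 and HSPA9 stood apart in height from those of the other members. At HSPA8 the fold enrichment at the summit was 54.3 and 39.6 without and 66.0 and 45.7 with doxycycline. At HSPA9 it was 44.4 and 38.7 without and 48.9 and 51.0 with it. The groups overlapped at HSPA8 and did not at HSPA9, with 2 libraries each and heights that are not scaled between libraries. The median over all YY1 peaks, near a gene start or not, was 5.14 to 5.38 in the 4 libraries. It is not a like measure, and the strongest peaks at the starts of all genes were not compared. The strongest peak was at 5.72 to 10.3 for HSPH1, 5.16 to 15.6 for HSPB1 and 2.75 to 18.0 for HSP90AA1.

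The sequence under these 2 summits is shown because both hold a YY1 core, AANATGGC on either strand, within 10 bases of the summit. They are 121 bases of hg19 on the minus strand, the strand of both genes, at chr11:122933335-122933455 and chr5:137911574-137911694, with the core in capitals.
HSPA8: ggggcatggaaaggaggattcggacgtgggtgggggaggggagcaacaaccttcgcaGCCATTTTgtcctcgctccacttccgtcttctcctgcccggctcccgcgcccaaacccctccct
HSPA9: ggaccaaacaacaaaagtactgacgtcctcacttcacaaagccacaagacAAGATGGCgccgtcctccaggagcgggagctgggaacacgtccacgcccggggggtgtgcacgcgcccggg

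Counted from the gene start, the summits lay at -550 or -551 in HSPA8 and between -545 and -538 in HSPA9, so they moved by 1 and 7 bases among the 4 libraries. The core reads in opposite directions in the pair. It was found in 6.58% of all 300-base promoter windows and, among those of the members, in a window of HSP90AA1 alone. That window, chr14:102139700-102139999 (GRCh38.p14), is not the one with the heat shock element above. Promoter windows are longer than the stretches shown and were not chosen by YY1 peaks, so the share is not a like measure.

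OCT4, the pluripotency factor encoded by POU5F1, had peaks at 6 of 10 members without doxycycline, where 40.4% of genes had one. They were HSPA8, HSPA9, DNAJB1, HSP90AA1, HSPD1 and HSPE1, with fold enrichments of 3.50 to 5.82 for the strongest peak of each. HSPD1 and HSPE1 each had 2 peaks in their windows, and their strongest was the same peak, with its summit in the DNA they share. With doxycycline none of the 10 had a peak, and 4.48% of genes did, so that 0 of 10 members and 4.29% of genes had one in both. Each of these is 1 library without a replicate, and the list without doxycycline holds 50775 peaks against 23352 with it.

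**Figure D5:**
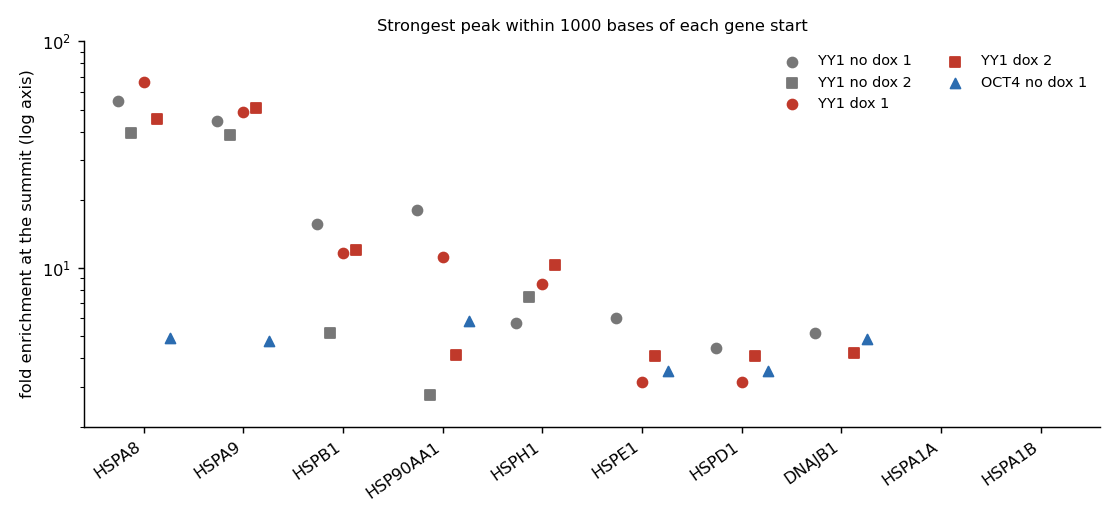
Fold enrichment at the summit (log axis) of the strongest peak within 1000 bases of the start of each of the 10 members, for 4 YY1 libraries (grey without, red with doxycycline) and the OCT4 library without doxycycline (blue); no point means no peak. HSPA8 and HSPA9 lie between 38.7 and 66.0, and all other members at or below 18.0.

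H3K9me3, the repressive histone mark laid down where KRAB acts, was seen at 3 of 10 members, and the libraries of a treatment did not agree. HSPA8 and HSP90AA1 had a peak in the first library of each treatment and HSPB1 in the first library without doxycycline, while the second libraries and the library of parental NCCITs had none at any member. That is 3 and 0 of 10 members without doxycycline, where 5.25% and 3.36% of genes had a peak, and 2 and 0 with it, where 4.27% and 3.87% had one. The share was 2.29% in the parental library and 1.55% in all 5. At HSP90AA1 its summit lay 1017 and 1019 bases after the start, and those of the strongest YY1 peaks of the first libraries 1007 and 1046 bases after it. Within 10 kb of the start of any member there was no H3K9me3 peak of the 2972 found in both treated and in neither untreated SCi-NCCIT library, and 2.3% of genes tested had one. The nearest was 88.9 kb away for HSP90AA1, 120 kb for HSPD1 and 2480 kb for HSPA8. The median was 547 kb for the members and 341 kb for all genes tested.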

How the data were processed

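NCCIT-derived SCi-NCCITs were profiled by RNA-seq (6 libraries) and by ChIP-seq for YY1, OCT4 and H3K9me3 (11 peak lists). For RNA, the authors deposited what kallisto gives for each transcript, an estimated count and a TPM, not normalized any further. The kallisto index is not given in the sources used here. For ChIP-seq, the deposited lists hold peaks called per library from reads aligned to hg19 with BWA. The deposited lists give summit heights as fold enrichment (a ratio) and q-values as −log10, as the peak format lays down. No peak was called anew. YY1 HiChIP was not used here.

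Transcripts were assigned to genes of GENCODE v44lift37. This placed 88.2% of 188753 transcripts, carrying 95.85 to 95.96% of the counts. Gene sums were rounded and compared with the quasi-likelihood test of edgeR 4.0.16 under R 4.3.3, after filterByExpr and TMM scaling (Benjamini-Hochberg over 16370 genes, threshold 0.05). CPM values used TMM-scaled library sizes. limma 3.58.1 used a pseudocount of 1 on TPM, and DESeq2 1.42.0 was run on the same counts. Low counts limit precision, as for HSPA6 and CRYAA. On simulated data for this comparison (16175 genes), the test recovered 66.7% of genes given a log2 change of 0.5 and 73.5% of those given 1, with 9 false of 147 calls.

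Groups came from the labels, and ChIP-seq libraries without a replicate number were called the first. The members and all gene lists were chosen with earlier results of these data known. Named were the 10 members, the 3 largest changes per list among genes that passed and averaged 5 CPM or more, and the 3 genes nearest in pattern to HSPA8 and HSPD1. A few other genes of the lists were added: HSF1, HSP90AB1, TRAP1 and HSPA5 as the principal member of their group, and HSPA6 and CRYAA after their values were seen. Promoters came from RefSeq (GRCh38.p14), and sequences at summits from hg19.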

Additional observations from a re-analysis of the deposited data

How the results depend on the processing

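The gene, member and list calls were recomputed with another tool, scaling or filter, with the replicate number as a term, with the counts of pseudogenes added and without each library in turn. Transcript shares, motifs and nearest patterns were not. DNAJB1, HSPB1 and HSPD1 passed in all 14 alternatives, and no tested member changed direction in any of them. HSP90AA1 lost its call in 7 and HSPH1 in 4, and the lost calls of HSPH1 were all in fits with 1 library fewer. HSPA9 gained a call in 2 and HSPE1 in 1. The members called were 3 to 4 without single libraries, 4 with counts scaled from TPM and 6 with DESeq2 or limma, against 5.

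Genes called, 2858 over all genes, were 1673 with counts scaled from TPM and 1727 with limma on log2(TPM + 1), and 1396 to 3260 without single libraries. With limma 42.6% of the calls were higher, against 51.4%. The calls in the other chaperone lists, 31, were 19 with scaled TPM, 17 with limma and 17 to 32 without single libraries. Leaving out a library leaves fewer samples. The cytosolic minus mitochondrial shift was 0.559 to 0.593 without single libraries and 0.587 on log2 TPM, alternatives chosen after seeing the data.

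Pairing of the libraries by replicate number was weak: the correlations of their deviations were 0.128, 0.08 and -0.001 for numbers 1, 2 and 3. The best match of an untreated library was the treated one of its own number for 1 and 2, but not for 3. With the replicate number as a block, 3316 genes were called, and 5 members and 31 list genes as before.

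HSPA1A and HSPA1B summed could not be fitted, and no gene was sought for their pattern, since both were at or near 0. With windows of 250 bases, H3K9me3 peaks were at 0 members in the first treated library and at 1 in the first untreated one, against 2 and 3.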
